A study of Mus musculus with 16 samples.

Results

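The genes described here make up the circadian clock and its first outputs: Clock, Per1, Per2, Per3, Cry1, Cry2, Nr1d1, Nr1d2, Dbp and Tef. They were chosen by gene name, and 9 of the 10 listed genes had a probe set named for them among the 17097 genes of the array annotation. Nr1d1 was not analysed here. Where a gene had several probe sets, the one with the highest mean over the 16 arrays was taken, and all 9 lay above the lower quartile of all probe sets on every array.

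RNA was measured on Affymetrix mouse arrays in epithelial cells sorted from the mammary glands of 4 female mice aged 10 weeks, strain C57BL/6J 129. The 2 knockout mice were Sox2-Cre +/+ with Cpeb2 -/-, and the 2 wild-type mice were Sox2-Cre +/+ with Cpeb2 +/+, so that every mouse carried the Cre and no group without it was analysed here. Sox2-Cre acts in the early embryo, so the deletion is not limited to the mammary epithelium. Mouse 1 of each genotype came from the same parents (parent pair 1), as did mouse 2 of each genotype (parent pair 2). Each mouse gave 4 populations, which makes 8 groups of 2 arrays: myoepithelial cells, sorted as Epcam low and CD49f high, and 3 luminal ones. Of these the alveolar progenitors are Sca1- and CD49b+, the ductal progenitors are positive for both antigens, and the non-clonogenic luminal cells are Sca1+ and CD49b-. The hour at which each mouse was killed is not in the labels, which matters here because RNA of most of these genes cycles over the day. All 4 populations of a mouse share that hour, so the mice were compared with each other before the genotypes.

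The mammalian clock is a feedback loop of transcription. CLOCK, or its paralog NPAS2, pairs with BMAL1 (the product of Arntl) and activates genes through E-boxes; among these are the Per and Cry genes, whose proteins return to the nucleus and block CLOCK and BMAL1. In a second loop the nuclear receptors encoded by Nr1d1 and Nr1d2 repress, and the ROR receptors activate, genes such as Arntl through ROR elements. Dbp, Tef and Hlf encode activators that bind D-boxes, where Nfil3 encodes a repressor. The mammary gland holds such a clock, and Per1 is also a direct target of the glucocorticoid receptor.

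The promoters are shown because the elements through which the loop acts can be read in them. From RefSeq (GRCm38.p6), windows of 300 bases, 250 before and 50 after the annotated start, were available for 9 of the 10 listed genes. Both strands were searched for the E-box CACGTG, the E-prime-box CACGTT, the D-box (TTATGTAA or TTACGTAA), the ROR element (AANT followed directly by AGGTCA or GGGTCA) and the cAMP response element TGACGTCA, and matches are printed in capitals. The Cry1 window, chr10:85185005-85185304 on the minus strand, is shown because Cry1 had the largest difference between populations among the 9 genes; its E-box begins 60 bases and its E-prime-box, which reads as AACGTG on the printed strand, 79 bases before the start, and they do not overlap.
Cry1: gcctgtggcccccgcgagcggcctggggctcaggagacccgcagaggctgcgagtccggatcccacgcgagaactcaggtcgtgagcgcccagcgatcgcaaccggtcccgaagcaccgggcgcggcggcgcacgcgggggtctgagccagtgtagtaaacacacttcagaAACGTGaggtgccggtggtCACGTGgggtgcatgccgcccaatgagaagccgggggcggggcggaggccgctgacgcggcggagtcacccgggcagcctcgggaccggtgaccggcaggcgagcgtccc
The Per1 window, chr11:69098699-69098998 on the plus strand, is shown because Per1 had the smallest p in the comparison of mice, and it holds an E-box that begins 166 bases before the start. A second annotated Per1 window, chr11:69099902-69100201, holds none of the motifs.
Per1: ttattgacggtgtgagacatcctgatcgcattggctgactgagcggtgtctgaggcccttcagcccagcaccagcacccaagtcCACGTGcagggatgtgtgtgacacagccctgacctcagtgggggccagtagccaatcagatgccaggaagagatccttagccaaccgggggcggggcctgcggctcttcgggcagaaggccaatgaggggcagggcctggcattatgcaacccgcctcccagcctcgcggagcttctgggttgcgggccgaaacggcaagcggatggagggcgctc
The Per3 window, chr4:151044616-151044915 on the minus strand, is the only listed promoter with D-box matches, which begin 205 and 158 bases before the start; the D-box is the site of the factors encoded by Dbp and Tef.
Per3: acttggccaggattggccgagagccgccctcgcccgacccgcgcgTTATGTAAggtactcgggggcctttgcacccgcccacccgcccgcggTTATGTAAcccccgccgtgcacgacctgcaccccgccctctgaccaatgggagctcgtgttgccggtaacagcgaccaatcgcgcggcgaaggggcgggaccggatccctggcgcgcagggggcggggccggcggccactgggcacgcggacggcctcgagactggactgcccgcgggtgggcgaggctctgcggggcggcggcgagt
Tef held an E-box in both of its annotated windows, 127 and 138 bases before the start, and Cry2 and Nr1d1 held an E-prime-box 166 and 28 bases before theirs. The windows of Clock, Nr1d2 and Dbp held none of these motifs. Of 32851 promoter windows of the same length, 7.15% held the E-box, 4.68% the E-prime-box, 1.06% the D-box, 0.435% the ROR element and 1.79% the cAMP response element. A match describes the letters of this window and does not show that a factor binds there.

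In the markers of the sorted populations, the arrays matched their labels. The mean log2 level of 6 myoepithelial markers was 12.21 to 12.38 in the myoepithelial arrays and 6.24 to 7.49 in the luminal arrays, that of 3 hormone-sensing markers (Esr1, Pgr, Foxa1) was 10.46 to 11.35 in the Sca1+ populations and at most 7.68 elsewhere, and that of 4 alveolar progenitor markers was 11.58 to 11.94 in alveolar progenitors. The ductal progenitors also carried the alveolar markers, at 8.91 to 10.34. Some markers of other cell types were called higher in myoepithelial than in luminal cells, as were 23.5% of all genes. These were 3 of 3 endothelial, 3 of 5 leukocyte, 2 of 4 fibroblast and 1 of 2 adipocyte markers. The part of such cells in the myoepithelial values was not tested. Cpeb2 itself averaged 6.01 in knockout and 6.92 in wild-type mice, a difference of -0.92 ± 0.13 (SE; adjusted p = 0.0353). It was called within no single population (adjusted p = 0.0933 in non-clonogenic luminal cells, 0.113 in ductal and 0.925 in alveolar progenitors and 0.449 in myoepithelial cells). Knockout mouse 2 stayed at 7.67 in non-clonogenic luminal cells and 7.35 in ductal progenitors, where knockout mouse 1 was at 6.42 and 6.39 and the wild types were at 7.88 to 8.66, and in the 2 other Cpeb2 probe sets knockout mouse 2 overlapped the wild types in these cells. The labels do not say which exons were deleted, so the probe set may lie outside them. Each group held 2 arrays, so every genotype difference within a population rests on few arrays. All values below are log2 expression as deposited, a level can be compared between samples but not between genes, and a gene is called at an adjusted p under 0.05. In bulk RNA, fewer cells of a type and less RNA per cell cannot be told apart.

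**Figure D1:**
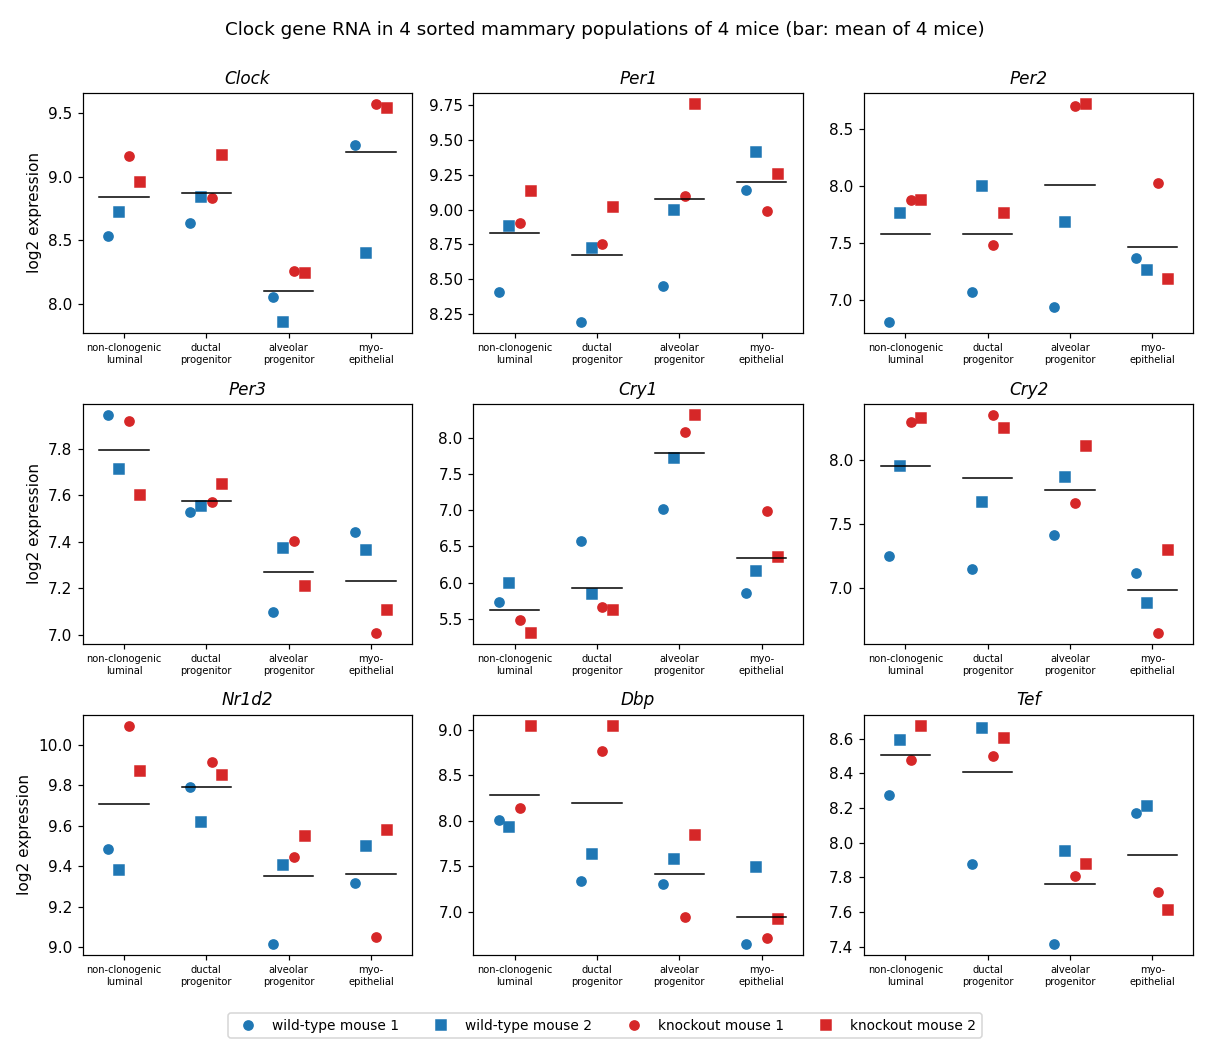
Log2 expression of the 9 measured clock genes (vertical axes, which do not start at 0 and differ between panels) in 4 sorted populations (horizontal axes), 1 point per array. Blue marks wild-type and red knockout mice, circles mouse 1 and squares mouse 2, and the black bar is the mean of 4 mice. Cry1 stands highest in alveolar progenitors in all 4 mice, while Clock stands lowest there in all 4.

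The cell populations differed in clock gene RNA. Of the 9 genes, 7 differed among the 4 populations in limma's F test: Clock, Per3, Cry1, Cry2, Nr1d2, Dbp and Tef. That test called 49.8% of all genes, so a difference between these populations was common on the array. Cry1 and Dbp kept this call in all 11 alternative settings, which include each mouse left out in turn. Clock, Per3, Cry2, Nr1d2 and Tef each lost it in at least 1. With the mouse as a fixed block the adjusted p of Nr1d2 was 0.0676, and with quantile normalization added it was 0.0587.

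Among the repressors of the loop, Cry1 set the alveolar progenitors apart. Cry1 encodes cryptochrome 1, a strong repressor of CLOCK and BMAL1. In alveolar progenitors it was at 7.02 and 7.72 in wild-type mice 1 and 2 and at 8.08 and 8.32 in knockout mice 1 and 2. In non-clonogenic luminal cells it was at 5.73 and 5.99 in the wild types and 5.48 and 5.31 in the knockouts. All 4 alveolar arrays lay above all 4 non-clonogenic luminal arrays. The mean was 4.47-fold higher in alveolar progenitors (non-clonogenic luminal minus alveolar -2.16 ± 0.20, adjusted p = 4.74e-06, lower in 4 of 4 mice). Ductal progenitors, at 6.58 and 5.84 in the wild types and 5.66 and 5.62 in the knockouts, were also below alveolar progenitors (-1.86 ± 0.20, adjusted p = 2.79e-05, 4 of 4 mice). Myoepithelial cells lay in between, at 5.86 and 6.17 in the wild types and 6.99 and 6.35 in the knockouts. Both Cry1 differences kept their call in all 11 alternative settings, each of the 4 mice left out in turn included.

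Cry2, which encodes the other cryptochrome, followed another pattern. It was lowest in myoepithelial cells, at 7.12, 6.88, 6.65 and 7.30 (here and below in the order wild-type mouse 1 and 2, knockout mouse 1 and 2). The luminal means were 7.95 in non-clonogenic cells, 7.86 in ductal progenitors and 7.76 in alveolar progenitors, and none of the 3 comparisons between luminal populations called it. Myoepithelial cells were 1.83-fold lower than the luminal mean (-0.87 ± 0.16, adjusted p = 0.000741, lower in 4 of 4 mice), a call kept in all 11 alternatives.

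Of the 3 period genes, Per3 was called between populations. Per3, a period gene thought to be less essential for the rhythm than Per1 and Per2, stepped from 7.79 ± 0.17 in non-clonogenic luminal cells (SD, n = 4 mice) through 7.58 ± 0.05 in ductal and 7.27 ± 0.14 in alveolar progenitors to 7.23 ± 0.21 in myoepithelial cells. Non-clonogenic luminal cells were above alveolar progenitors by 0.52 ± 0.11 (adjusted p = 0.00312, 4 of 4 mice), and myoepithelial cells were below the luminal mean by -0.32 ± 0.09 (adjusted p = 0.0114, 4 of 4 mice). The first call was lost without knockout mouse 1 (adjusted p = 0.0763), knockout mouse 2 (0.0512) or wild-type mouse 1 (0.0563), and the second without knockout mouse 1 (0.169), knockout mouse 2 (0.0601) or wild-type mouse 2 (0.0506), and with quantile normalization added (0.0665). Per1 and Per2 were not called in the F test (adjusted p = 0.112 and 0.288): their means ran from 8.67 in ductal progenitors to 9.20 in myoepithelial cells for Per1, and from 7.46 in myoepithelial cells to 8.01 in alveolar progenitors for Per2. With quantile normalization added, Per1 was called in the F test and between myoepithelial and luminal cells. For Per2 the SD over mice reached 0.86 within alveolar progenitors alone.

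Clock, which encodes the DNA-binding partner of BMAL1, was lowest in alveolar progenitors. It was at 8.06, 7.86, 8.26 and 8.24 there, against 8.53, 8.72, 9.16 and 8.95 in non-clonogenic luminal cells and 8.64, 8.84, 8.83 and 9.17 in ductal progenitors. None of the alveolar arrays reached the lowest of these 8 arrays. The differences were 0.74 ± 0.17 (adjusted p = 0.00564) and 0.77 ± 0.17 (adjusted p = 0.00594), each in 4 of 4 mice, and both were lost without knockout mouse 1 (adjusted p = 0.123 and 0.0799) or knockout mouse 2 (0.0831 and 0.164). Myoepithelial cells were above the luminal mean by 0.58 ± 0.14 (adjusted p = 0.00394, 3 of 4 mice), but with the mean of the 4 Clock probe sets this difference was 0.08 (adjusted p = 0.564), and it was lost without knockout mouse 1 (0.0743) or knockout mouse 2 (0.0638). In the other 3 probe sets alveolar progenitors were again lowest, but the means of myoepithelial cells were below those of non-clonogenic luminal cells. The partner gene Arntl was lower in myoepithelial cells than in luminal cells by -0.76 ± 0.28 (adjusted p = 0.0431), with wild-type mouse 2 lowest at 6.16. A second Arntl probe set did not show this: its mean was 7.18 in myoepithelial cells and 7.03, 6.88 and 7.23 in non-clonogenic, ductal and alveolar cells.

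Nr1d2, the measured member of the repressor pair of the second loop, had its highest means in ductal progenitors (9.79) and non-clonogenic luminal cells (9.71) and its lowest in myoepithelial cells (9.36) and alveolar progenitors (9.35). Ductal exceeded alveolar progenitors by 0.44 ± 0.14 (adjusted p = 0.0403, 4 of 4 mice). The call was lost without knockout mouse 1 (0.265), knockout mouse 2 (0.170) or wild-type mouse 1 (0.261), with the mouse as a fixed block (0.0809), and with the mean of both probe sets (0.0548). Among the RORs, Rora was higher in alveolar progenitors than in the non-clonogenic population (non-clonogenic minus alveolar -0.61 ± 0.17, adjusted p = 0.0147).

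The D-box factors divided between populations. Dbp and Tef, direct outputs of the loop, were higher in the Sca1+ luminal populations than in alveolar progenitors, and Hlf was higher in alveolar progenitors. Dbp was at 8.01, 7.93, 8.14 and 9.05 in non-clonogenic luminal cells and 7.31, 7.58, 6.95 and 7.84 in alveolar progenitors. No alveolar array reached the lowest non-clonogenic luminal one, and the difference was 0.86 ± 0.24 (1.82-fold, adjusted p = 0.0164, 4 of 4 mice). In ductal progenitors Dbp was at 7.34, 7.64, 8.76 and 9.04, which overlapped the alveolar values but exceeded them on average by 0.78 ± 0.24 (adjusted p = 0.0348). These Dbp calls did not survive every omission: the adjusted p was 0.0582, 0.0582 and 0.0869 for non-clonogenic against alveolar cells without knockout mouse 1, knockout mouse 2 or wild-type mouse 1, and 0.0574 to 0.199 for ductal against alveolar progenitors without any single mouse. With the mouse as a fixed block they were 0.0509 and 0.0947. Myoepithelial cells had the least Dbp, at 6.65, 7.49, 6.71 and 6.92, which was 2.03-fold below the luminal mean (-1.02 ± 0.19, adjusted p = 0.000898, 4 of 4 mice), and this call held in all 11 alternatives.

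Tef was at 8.27, 8.59, 8.48 and 8.68 in non-clonogenic luminal cells and at 7.42, 7.95, 7.81 and 7.88 in alveolar progenitors, again without overlap. The difference was 0.74 ± 0.17 (1.67-fold, adjusted p = 0.00502, 4 of 4 mice), and ductal progenitors exceeded alveolar ones by 0.65 ± 0.17 (adjusted p = 0.0146, 4 of 4 mice). Without knockout mouse 1 or 2 neither was called (adjusted p = 0.108 and 0.141 for the first, 0.210 and 0.227 for the second). Hlf, the paralog of Dbp and Tef, was at 8.46, 8.43, 8.30 and 8.89 in alveolar progenitors, above every array of the other populations, whose highest was 7.56. It was 2.83-fold higher there than in non-clonogenic luminal cells (non-clonogenic minus alveolar -1.50 ± 0.13, adjusted p = 2.77e-06, 4 of 4 mice). Nfil3, the repressor at the same sites, was highest in myoepithelial cells (10.53, 10.67, 9.91 and 11.12), by 1.55 ± 0.31 over the luminal mean (adjusted p = 0.00133, 4 of 4 mice).

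**Figure D2:**
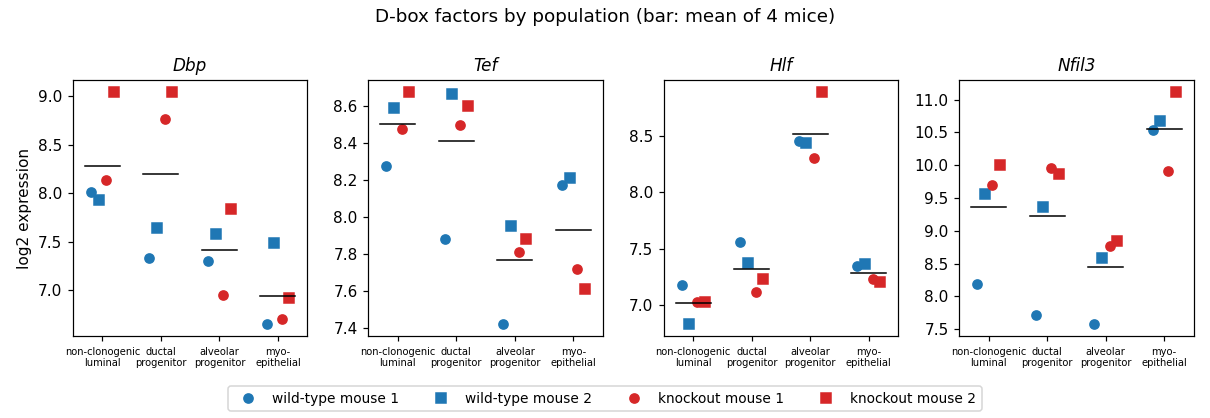
Log2 expression of 4 genes that act at D-boxes (vertical axes, not from 0, different in each panel) in the 4 populations, 1 point per array, with colours, symbols and bars as for the plot of all clock genes. Dbp and Tef have their higher means in the Sca1+ luminal populations, Hlf in alveolar progenitors (mean 8.52) and Nfil3 in myoepithelial cells (mean 10.56).

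In counts, 5 of the 9 genes were called between non-clonogenic luminal cells and alveolar progenitors (Clock, Per3, Dbp and Tef higher, Cry1 lower), against 28.5% of all genes (15.9% higher and 12.6% lower), with a median difference of 0.35 against 0.03 over all genes. Between ductal and alveolar progenitors 5 were called (Clock, Nr1d2, Dbp and Tef higher, Cry1 lower), against 22% of all genes (11.3% higher and 10.7% lower). Between myoepithelial and luminal cells 4 were called (Clock higher, and Per3, Cry2 and Dbp lower), against 48% of all genes (23.5% higher and 24.4% lower). Without knockout mouse 1 or without knockout mouse 2, Cry1 alone stayed called in both comparisons with alveolar progenitors. Between ductal and alveolar progenitors fewer of all genes were then called too, and each knockout group was 1 array. Over the 11 alternative settings the Cry1 differences ran from -2.27 to -2.05 for non-clonogenic and from -2.22 to -1.50 for ductal cells. Those of Clock ran from 0.64 to 1.13 and from 0.665 to 0.97. Those of Tef ran from 0.69 to 0.795 and from 0.58 to 0.71. Between the Sca1+ populations no difference was detected: limma called 0 of 9 between non-clonogenic luminal cells and ductal progenitors, and 0 had an unadjusted p under 0.05 (0.795% and 6.42% of all genes), with differences from -0.30 ± 0.20 for Cry1 to 0.22 ± 0.11 for Per3. Both comparisons with alveolar progenitors rest on the same alveolar arrays.

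The other clock genes were taken from lists of regulators (22 of 26 measured) and of outputs (9 of 12 measured). Among the regulators 11 of 22, and among the outputs 6 of 9, differed among populations, against 49.8% of all genes; the share of the regulators is that of the array as a whole. Prkaa2, a catalytic subunit of the kinase AMPK, which marks CRY1 for degradation, was lower in non-clonogenic luminal than in alveolar cells (-3.02 ± 0.20, adjusted p = 2.54e-07). Btrc and Fbxw11, which encode subunits of the ubiquitin ligase that acts on PER proteins, were higher in that comparison (1.05 ± 0.19 and 0.74 ± 0.16, adjusted p = 0.00101 and 0.00443). Sirt1, a deacetylase that acts on the loop, was lower in the same comparison (-0.80 ± 0.20, adjusted p = 0.00798). Bhlhe40 and Bhlhe41, which encode E-box repressors, were higher in non-clonogenic luminal cells (0.61 ± 0.12 and 0.49 ± 0.15, adjusted p = 0.00255 and 0.0240). Of the outputs, Wee1, a kinase that holds cells out of mitosis, was lower there than in alveolar progenitors (-1.06 ± 0.13, adjusted p = 5.01e-05), and Noct, a rhythmic phosphatase gene also known as Nocturnin, was higher in myoepithelial than in luminal cells (0.84 ± 0.16, adjusted p = 0.00093).

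The mice were then compared with each other over all 4 populations, since a shared hour of collection would shift a whole mouse. With 2 mice of each genotype, this comparison also takes in the difference between genotypes. It does not separate that difference from other differences between the 4 mice. In limma's F test, with population and mouse as terms, 0 of 9 clock genes were called, against 2.99% of all genes; 4 had an unadjusted p under 0.05 (Clock, Per1, Per2 and Cry2), against 19.3% of all genes. Per1 had the smallest adjusted p (0.0866). Wild-type mouse 1 had the lowest mouse mean for 7 of the 9 genes, and 37.2% of all genes were lowest in it. Knockout mouse 2 had the highest mean for 5 of the 9, and 26.3% of all genes were highest in it.

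Per1 shows the pattern in single arrays. In wild-type mouse 1 it was at 8.41 in non-clonogenic luminal cells, 8.19 in ductal progenitors, 8.45 in alveolar progenitors and 9.14 in myoepithelial cells. In knockout mouse 2 the same populations were at 9.13, 9.02, 9.76 and 9.26. Wild-type mouse 1 was the lowest of the 4 mice in the 3 luminal populations and knockout mouse 2 the highest, while in myoepithelial cells wild-type mouse 2 was highest at 9.41 and knockout mouse 1 lowest at 8.99. Averaged over populations, knockout mouse 2 exceeded wild-type mouse 1 by 0.75 (adjusted p = 0.0336), the only call for the 9 genes in the 6 comparisons between 2 mice. That comparison called 3.18% of all genes. The others called 1.19% for knockout 1 against wild type 1, 2.06% for knockout 1 against wild type 2, 1.9% for knockout 2 against wild type 2, 0.0351% between the knockouts and 0.0702% between the wild types. The 2 mice of parent pair 2 exceeded those of pair 1 by 0.41 ± 0.12 for Per1, which was not called (adjusted p = 0.319); limma called 0 of 9 between parent pairs, 1 had an unadjusted p under 0.05, and 0.158% and 7.37% of all genes passed.

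Per2, whose product like that of Per1 represses the loop, was also lowest in wild-type mouse 1 in the 3 luminal populations. It was at 6.81, 7.76, 7.87 and 7.88 in non-clonogenic luminal cells, 7.07, 8.00, 7.48 and 7.76 in ductal progenitors, 6.94, 7.68, 8.70 and 8.72 in alveolar progenitors and 7.37, 7.26, 8.03 and 7.19 in myoepithelial cells. The mouse means were 7.05 and 7.68 in the wild types and 8.02 and 7.89 in the knockouts (adjusted p of the F test 0.151). For Arntl, whose RNA runs opposite to the Per genes in a normal cycle, the mouse means were 7.77 and 7.58 in the wild types and 8.57 and 8.25 in the knockouts (adjusted p of the F test 0.231). For Npas2 the F test gave an adjusted p of 0.983. Of the other clock genes, Rora (adjusted p = 0.0281) and Timeless (adjusted p = 0.0175) differed between mice. Timeless averaged 6.20 in the knockouts and 7.53 in the wild types.

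**Figure D3:**
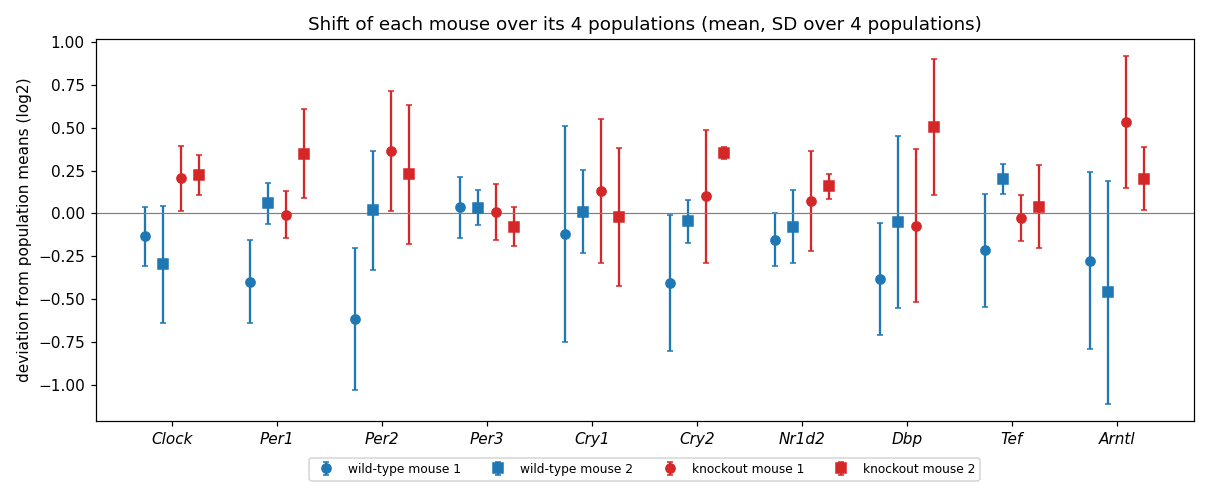
Deviation of each mouse from the population means (vertical axis, log2), averaged over its 4 populations, for the 9 clock genes and Arntl (horizontal axis). Points are means and bars the SD over 4 populations of 1 mouse, which are not replicates of a genotype; blue marks wild type, red knockout. For Per1 wild-type mouse 1 lies at -0.40 and knockout mouse 2 at 0.35, and for Clock both knockout mice lie above 0 and both wild types below.

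Division genes differed with the mice, and their mean level in every knockout array lay below that in every wild-type array. Of 19 division genes, 18 were called between mice, and their mean level was 7.44 to 9.70 in the arrays of wild-type mouse 1, 8.79 to 9.44 in wild-type mouse 2, 6.64 to 7.26 in knockout mouse 1 and 6.67 to 6.92 in knockout mouse 2. Of 18 immediate early genes, which respond to handling and dissociation, 1 was called, and of 11 glucocorticoid-response genes 0 were, against 2.99% of all genes. The part of the division genes in the clock gene values was not tested. The 6 genes whose population-centred values ran closest to Per1 over the 16 arrays were Fam13a, Dixdc1, D130037M23Rik, Dnajb4, Ddit3 and Kcnq1 (Pearson r 0.90 to 0.86 among 14131 genes), and the 4 that ran most against it were Enoph1, Fanci, Sf3b3 and Pole2 (-0.86 to -0.84). The points share mice, and each r is a description.

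Between genotypes, Dbp was higher in the knockouts in ductal progenitors, and none of the other 8 measured members of the set was called in any population. In ductal progenitors Dbp was at 7.34 and 7.64 in the wild types and 8.76 and 9.04 in the knockouts, so that the lower knockout array lay well above the higher wild type. The difference was 1.42 ± 0.34, or 2.67-fold (adjusted p = 0.0339); limma called 1 of the 9 genes there, against 7.44% of all genes (3.09% higher in knockout). Leaving out a mouse changed the adjusted p to 0.189 (knockout mouse 1), 0.184 (knockout mouse 2), 0.212 (wild-type mouse 1) or 0.0356 (wild-type mouse 2), with differences from 1.27 to 1.57; it was 0.154, 0.129 and 0.267 without the ductal array alone of knockout mouse 1, knockout mouse 2 and wild-type mouse 1. With the 4 ductal arrays alone it was 0.0742, and 69 of all genes were called in place of 1272. With the parent pair as a block it was 0.0108. Cry2 was then called as well (2 of 9), and 1520 of all genes were called.

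In the other populations the Dbp differences were 0.62 ± 0.34 in non-clonogenic luminal cells, -0.05 ± 0.34 in alveolar progenitors and -0.26 ± 0.34 in myoepithelial cells, none called (adjusted p = 0.384, 0.999 and 0.807). The test that the knockout effect differs between populations did not call Dbp (adjusted p = 0.205). Some cell type markers moved with Dbp in ductal progenitors. The 4 alveolar markers averaged 10.34 and 9.89 in the wild types and 8.91 and 9.54 in the knockouts, with 2 of 4 called lower. Of these, Aldh1a3 overlapped between genotypes (10.56 and 9.79 against 10.21 and 10.42). The 3 hormone-sensing markers averaged 10.46 and 10.92 against 11.35 and 11.30, with 1 of 3 called higher. Among them Foxa1 went the other way, at 10.93 and 10.51 in the wild types and 10.39 and 10.48 in the knockouts. The 4 fibroblast markers averaged 9.05 and 8.05 against 7.57 and 7.36, with 1 of 4 called lower and Pdgfra under the lower quartile on all arrays. Of 19 division genes, 14 were called lower. The array's RNA quality controls parted as well: the 3′ minus the middle probe set of Gapdh was 0.60 and 0.39 in the wild types and 0.15 and 0.12 in the knockouts, and that of beta-actin was 0.12 and 0.27 against 0.05 and 0.06. The part of these markers and controls in the Dbp difference was not tested.

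**Figure D4:**
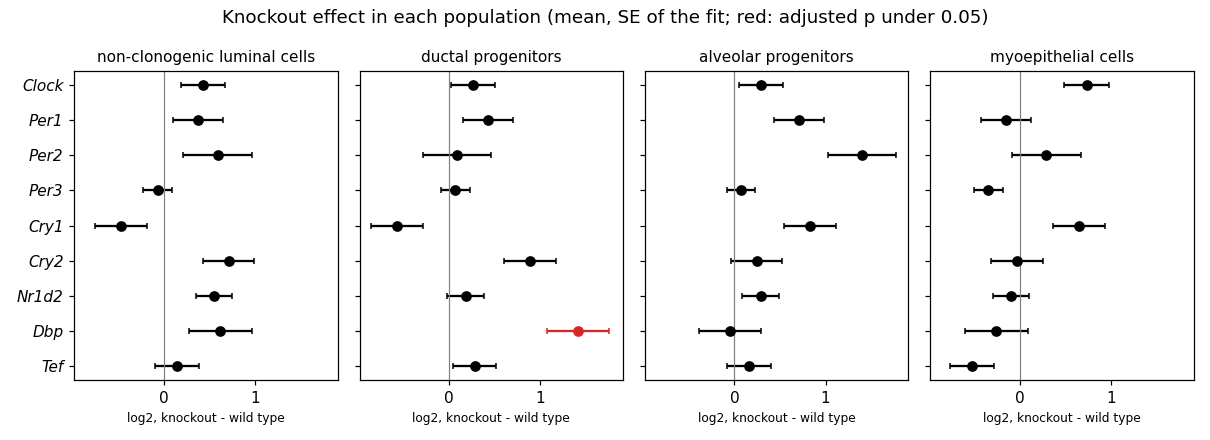
Knockout minus wild-type difference (horizontal axes, log2) of the 9 clock genes in each population; points are estimates from 2 against 2 mice, bars the SE of the fit, and red marks the only call (Dbp in ductal progenitors, 1.42). Cry1 lies left of 0 in both Sca1+ populations and right of 0 in alveolar progenitors and myoepithelial cells.

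Elsewhere limma called 0 of 9 in non-clonogenic luminal cells (2 with an unadjusted p under 0.05; 2.06% and 17.1% of all genes), 0 of 9 in alveolar progenitors (3 unadjusted; 0.62% and 9.5%) and 0 of 9 in myoepithelial cells (3 unadjusted; 1.01% and 14.2%). The largest uncalled difference was that of Per2 in alveolar progenitors, where the wild types at 6.94 and 7.68 lay below the knockouts at 8.70 and 8.72 (1.40 ± 0.37, adjusted p = 0.157). The second Per2 probe set gave 0.62 in the same cells and 0.81 in ductal progenitors, where the probe set used gave 0.09. Array weights brought Per2 in alveolar progenitors past the threshold (1 of 9 called), and 389 of all genes were then called in place of 106. Immediate early genes had a median difference of 0.52 in alveolar progenitors, with 1 of 18 called, and their part in the Per2 values was not tested.

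Cry2 was higher in the knockouts without overlap in ductal progenitors (7.15 and 7.67 against 8.35 and 8.25; 0.89 ± 0.29, adjusted p = 0.0752) and in non-clonogenic luminal cells (7.25 and 7.95 against 8.29 and 8.33; 0.71 ± 0.28, adjusted p = 0.231). Clock was higher in the knockouts without overlap in 3 populations, most in myoepithelial cells, where wild-type mouse 2 stood low (9.25 and 8.40 against 9.57 and 9.54; 0.73 ± 0.24, adjusted p = 0.195). Without wild-type mouse 1, or without its myoepithelial array alone, Clock was called in myoepithelial cells, and the calls among all genes also rose. The wild-type side of that difference was then 1 array. Clock lies on chromosome 5, as Cpeb2 does, with 112 measured genes between them, and its other 3 probe sets differed from the one used. In non-clonogenic luminal cells they gave differences of -0.05, 0.04 and -0.11 where the one used gave 0.43, and in ductal progenitors -0.45, -0.13 and -0.34 where it gave 0.26. In alveolar progenitors they gave 0.45, 0.50 and 0.81 and in myoepithelial cells 0.43, 0.47 and 0.39, higher in knockout as for the one used. The 3 endothelial markers averaged 7.24 and 7.08 in wild-type and 7.61 and 8.25 in knockout myoepithelial cells, with 1 of 3 called higher. Of 5 leukocyte markers 1 was called lower there, and 1.01% of all genes were called. The part of these markers in the Clock values was not tested. Per1 was higher in the knockouts in the 3 luminal populations, by 0.37 ± 0.27, 0.43 ± 0.27 and 0.71 ± 0.27, without overlap and without a call.

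Cry1 parted by population. The knockouts lay below the wild types in ductal progenitors (-0.57 ± 0.28) and non-clonogenic luminal cells (-0.47 ± 0.28) and above them in alveolar progenitors (0.83 ± 0.28) and myoepithelial cells (0.65 ± 0.28), with no overlap in any of the 4. The test that the effect differs between populations gave Cry1 an adjusted p of 0.140; limma called 0 of 9 in it, 2 had an unadjusted p under 0.05 (Cry1 and Dbp), and 0.667% and 16.8% of all genes passed. Without wild-type mouse 2, or without its ductal array alone, Cry1 was called, and the calls among all genes also rose. The wild-type side in ductal progenitors was then 1 array.

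Genotypes did not overlap for 7 of 9 genes in non-clonogenic luminal cells (50.8% of all genes), 6 in ductal progenitors (60.4%), 5 in alveolar progenitors (44.1%) and 4 in myoepithelial cells (41.5%). With 2 against 2 arrays such separation was common among all genes. Over mouse means limma called 0 of 9 between genotypes, 3 had an unadjusted p under 0.05 (Clock, Per2 and Cry2), and 2.88% and 20.7% of all genes passed. The median difference was 0.34 against 0.03 over all genes, with 8 of 9 higher in knockout, Tef by 0.01 and Cry1 by 0.11. The share of all genes higher in knockout was not counted. Other lists had medians of 0.29 (glucocorticoid response), 0.25 (immediate early), 0.20 (clock outputs), 0.05 (clock regulators) and -2.25 (division). Without wild-type mouse 2 Per2 was called, with the wild-type side then 1 mouse. Arntl was 0.73 ± 0.15 higher in knockout and not called (adjusted p = 0.0738); its second probe set gave 0.34.

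Of the other clock genes, Timeless was lower in knockout over mouse means (-1.33 ± 0.09, adjusted p = 0.0061). It was also called lower in alveolar progenitors, by -2.11 ± 0.25 (adjusted p = 0.00282). The same held in ductal progenitors (-1.55 ± 0.25, adjusted p = 0.00877) and non-clonogenic luminal cells (-1.24 ± 0.25, adjusted p = 0.0315). Timeless was not called in myoepithelial cells (-0.42 ± 0.25, adjusted p = 0.488). The mammalian Timeless protein works at the replication fork. Over mouse means 15 of 19 division genes were called lower, with a median of -2.25, and 2.88% of all genes were called. The part of division in the Timeless difference was not tested. In ductal progenitors Bhlhe40 was at 10.50 and 10.91 in the wild types and 11.50 and 11.52 in the knockouts (0.80 ± 0.18, adjusted p = 0.0264), and Bhlhe41 at 7.66 and 8.05 against 8.77 and 8.59 (0.83 ± 0.21, adjusted p = 0.0395). Prkaa2 (-1.19 ± 0.28, adjusted p = 0.0321) and Pdk4, a kinase gene of fuel choice under PPAR control (-1.63 ± 0.42, adjusted p = 0.0405), were lower there. Pdk4, like Prkaa2, was also lower in non-clonogenic luminal than in alveolar cells (-1.52 ± 0.29, adjusted p = 0.00176). Of 4 alveolar markers, 2 were called lower in knockout ductal progenitors, and their part in these differences was not tested. Calls of genes outside the 9 were not followed under other settings. In all, 4 of 22 regulators and 1 of 9 outputs were called in ductal progenitors (7.44% of all genes). In myoepithelial cells limma called 0 of 22 and 0 of 9 (1.01% of all genes), and 2 of each had an unadjusted p under 0.05 (14.2% of all genes).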

How the data were processed

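The deposited values are log2 expression, 1 value per probe set and array; RMA and limma are named, without role or version, in the submitters' processing notes. How background, batches and low values were treated is not stated there. Per the labels' protocols, 15 ng of RNA was amplified and 8 µg of cDNA labelled with biotin. No further normalization was applied. Of 45141 probe sets, 28898 were named for 1 gene, and 104 were controls.

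Tests ran on all 17097 genes in limma 3.58.1 (R 4.3.3, statmod 1.5.0), with eBayes trended on mean expression and Benjamini-Hochberg adjustment. Genotypes within populations, and populations, were compared in an 8-group model with the mouse as a random block (correlation 0.0383). Mice were compared with population and mouse as fixed terms, whose spread is that between populations of a mouse, and genotypes over mice on 4 mouse means. Scripts were tested on simulated data.

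The members and lists were chosen with earlier results of these data known. All members, Cpeb2, called genes of the other clock lists (at most 8 per comparison), Arntl and Npas2 are eligible to be named. Mice of the same number share parents per the labels; deviations of same-parent mice from their genotype means correlated at 0.194 over mouse means and at -0.043 to 0.074 within populations. Mice are separate animals, and each gave 1 array per population.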

Additional observations from a re-analysis of the deposited data

Results flagged for a closer look

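In 2 genes the genotypes parted in opposite directions in different populations, every knockout array above the wild types in some and below them in others. Such separation was common: in a single population, genotypes did not overlap for 41.5% (myoepithelial cells) to 60.4% (ductal progenitors) of all genes. The share of all genes that parted in opposite directions was not counted. For Cry1 the knockout minus wild-type difference was 0.831 in alveolar progenitors and 0.652 in myoepithelial cells, and -0.47 in non-clonogenic luminal cells and -0.571 in ductal progenitors. For Per3 it was 0.066 in ductal progenitors and -0.345 in myoepithelial cells. In ductal progenitors the lower knockout array of Per3 was at 7.569 and the higher wild type at 7.556. The other Per3 probe sets gave 0.529, -0.235, 0.065 and 0.079 there, and -0.556, -0.432, -0.334 and -0.14 in myoepithelial cells. These opposite directions were not tested pair by pair. The F test that the knockout effect differs over all 4 populations called neither gene (adjusted p = 0.140 for Cry1 and 0.541 for Per3).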

How the results depend on the processing

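Of 247 values of called clock genes under other settings, 197 kept their call, 50 lost it and 0 reversed. Leaving out each mouse, and for genotype and mouse tests also each array (an addition made after seeing the data), gave these ranges for genes called of 9: 2 to 7 among populations, 2 to 5 for myoepithelial against luminal cells, 1 to 5 when alveolar progenitors were compared with non-clonogenic luminal cells and 1 to 4 with ductal progenitors, 0 to 4 for the knockout in ductal progenitors, 0 to 1 in myoepithelial cells, 0 to 1 over mouse means, 0 to 1 for the knockout effect differing between populations, and 0 to 2 between mice. With the mouse as a fixed replicate block, 3 genes were called between ductal and alveolar progenitors in place of 5. Among all genes 3266 were then called in place of 3759. With the parent pair as a replicate block, 2 were called for the knockout in ductal progenitors in place of 1, and the 4 ductal arrays alone gave 0. Among all genes these settings called 1520 and 69, in place of 1272. Array weights gave 1 (Per2) for the knockout in alveolar progenitors and 1 (Per1) between mice, where leaving out myoepithelial cells gave 2 (Cry2 and Per1). For the knockout in alveolar progenitors, array weights called 389 of all genes in place of 106. Where mice or arrays were left out, the number called among all genes moved as well, up or down. The cause of these changes was not tested. The replicate block changed no other count of called genes by more than 1.5 times. With 2 mice per genotype, differences well under 1 on the log2 scale were seldom called within a population, and a lone mouse left in a group is assumed to vary like the other groups.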
